A study of Mus musculus with 12 samples.

Results

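Among the 56735 genes of the count table, 6 were examined because their transcripts were plentiful in tdT+ macrophages and nearly missing from tdT- macrophages: Ptprk, Ephb6, Lamc1, Lbx1, Nrap and Slc27a6. They were selected on their low counts in tdT- libraries and high counts in tdT+ libraries, so the difference between tdT- and tdT+ cells is given as a description, with no test. The relatives of the genes and their neighbours in the genome were not used for the selection. The selection asked for high counts in tdT+ libraries, which favours genes found in most of them and not lost from either tdT+ group. Detection in tdT+ libraries, the spread among them and the comparison of the tdT+ groups are thus partly set by it. Slc27a6 was picked partly for its high level in vehicle-treated mice.

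Bulk RNA-seq was performed on CD206+ sdCAMs, which are macrophages of leptomeninges and perivascular spaces, from adult mouse brain after removal of the choroid plexuses. All mice were Mrc1CreERT2/CreERT2:R26tdT/tdT, carried the Cre on both Mrc1 alleles, received tamoxifen and were treated 4 weeks later for 7 days with BLZ945, an inhibitor of the CSF-1 receptor, at 200 mg per kg, or with vehicle. Cells were taken 8 weeks after treatment, giving 3 groups of 4 libraries, namely vehicle tdT+, BLZ945 tdT+ and BLZ945 tdT-. Within each group the mice are labelled F1, F2, M1 and M2, and each mouse given BLZ945 supplied both a tdT+ and a tdT- library, whereas the vehicle mice are separate. The tag depends on Mrc1 being active at induction, so tdT- cells include any CD206+ cell whose precursor was not CD206+ at that time or did not recombine.

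The genes come from unrelated families. Ptprk encodes a receptor-type tyrosine phosphatase that binds its own kind on neighbouring cells, Ephb6 an Eph receptor without kinase activity, and Lamc1 the gamma 1 chain found in most laminins of basement membranes. Lbx1 encodes a homeobox factor best known from migrating muscle precursors and dorsal spinal cord neurons, Nrap an actin-anchoring protein of striated muscle from the nebulin family, and Slc27a6 a fatty acid transport protein best known from heart. Basement membranes line the perivascular and leptomeningeal spaces in which sdCAMs live.

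Totals lay between 19969308 and 23395058 counts per library, so that 3 counts, the limit that a count of 0 allows and the floor used here, corresponded to between 2.60 and 3.16 normalised counts (counts divided by DESeq2 size factors). Marker genes separated the groups further. The summed level of 6 sdCAM markers lay between 144008 and 194764 normalised counts in tdT+ libraries and between 52064 and 80861 in tdT- libraries, and none of the 6 was absent from any group. The summed level of 6 microglia markers lay between 46907 and 104635 in tdT+ libraries and between 212440 and 457232 in tdT- libraries, and all 6 were called higher in tdT- cells than in either tdT+ group. Among them, P2ry12 was at 21874 ± 1444 (SD, n = 4) in BLZ945 tdT+ libraries and 65440 ± 29858 in tdT- libraries, and Sall1 at 461 ± 228 and 2115 ± 791. The tdT- library F2 also held neutrophil markers at a summed 422704 normalised counts, against at most 69.4 in the other 11 libraries, and the highest sum of monocyte markers (51211). This monocyte sum was 6650, 5525 and 3076 in the tdT- libraries F1, M1 and M2. It lay between 1549 and 3885 in vehicle and between 901 and 1981 in BLZ945 tdT+ libraries. Of the 5 monocyte markers 4 could be tested, and 1, Ccr2, was called, higher in tdT- cells than in either tdT+ group. The vehicle library F2, from a mouse labelled female, held 112 counts of the Y-linked gene Kdm5d and 0 counts of Ddx3y, Eif2s3y and Uty. The reporter tdTomato had 0 counts in every library, so the sort could not be checked on it.

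Reference promoters were found for 3 of the 6 genes in a RefSeq table for GRCm38.p6. They are shown because these genes were all nearly missing from tdT- libraries, the trait on which they were selected. Each sequence runs from 250 bases before to 50 bases after the annotated start of the gene. Capitals mark the letters GGGCGG (a GC box), CAGCTG (a subset of E boxes) and GAGGAA (a PU.1-type ETS core), each searched on both strands.
Ptprk, chr10:28074570-28074869, plus strand: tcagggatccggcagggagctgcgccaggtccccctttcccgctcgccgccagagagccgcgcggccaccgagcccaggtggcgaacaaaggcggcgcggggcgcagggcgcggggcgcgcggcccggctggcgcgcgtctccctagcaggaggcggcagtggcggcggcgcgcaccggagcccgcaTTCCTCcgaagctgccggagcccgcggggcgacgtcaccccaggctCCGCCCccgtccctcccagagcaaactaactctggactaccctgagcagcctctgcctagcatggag
Ephb6, chr6:41605261-41605560, plus strand: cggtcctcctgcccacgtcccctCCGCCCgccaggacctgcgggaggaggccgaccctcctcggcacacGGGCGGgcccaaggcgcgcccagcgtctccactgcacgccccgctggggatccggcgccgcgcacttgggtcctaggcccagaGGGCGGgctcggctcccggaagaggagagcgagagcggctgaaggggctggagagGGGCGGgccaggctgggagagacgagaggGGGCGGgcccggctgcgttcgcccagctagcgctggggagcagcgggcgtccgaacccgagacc
Nrap, chr19:56389989-56390288, minus strand: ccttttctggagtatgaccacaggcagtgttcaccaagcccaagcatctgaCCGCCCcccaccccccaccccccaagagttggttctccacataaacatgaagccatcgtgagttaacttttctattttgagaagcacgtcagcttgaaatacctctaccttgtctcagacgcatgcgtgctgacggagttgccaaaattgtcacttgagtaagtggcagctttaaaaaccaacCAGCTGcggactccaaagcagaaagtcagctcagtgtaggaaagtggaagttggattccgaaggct
The windows differed in composition. Those of Ptprk and Ephb6 held 75% and 76.3% G and C and 38 and 34 CpG dinucleotides, whereas that of Nrap held 49.7% and 8, beside medians of 52.7% and 7 over 32851 mouse promoters of the same length. GGGCGG was found in all 3 (5 matches in Ephb6, 1 each in Ptprk and Nrap) and in 35.7% of all promoters. GAGGAA was found once, in Ptprk (28.3% of all promoters), and CAGCTG once, in Nrap (16.3%). The TATA box TATAAA was found in none of the 3 (13.6% of all promoters), nor was the CCAAT box (37.4%) or the AP-1 site with the letters TGANTCA (7.81%).

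In total, the 6 genes held between 1671 and 3411 counts in each tdT+ library and 1, 12, 5 and 3 counts in the tdT- libraries F1, F2, M1 and M2. The 21 counts left in tdT- cells were 9 of Ptprk, 6 of Nrap, 3 of Lamc1 and 3 of Lbx1. The library F2, in which neutrophil markers were high, held 12 of them. In bulk samples, fewer cells of a type that carries a transcript and less of the transcript per cell cannot be told apart. Against vehicle, the tdT- libraries lay below all others for 6 of the 6 genes, and against BLZ945 tdT+ libraries for 5, all but Slc27a6. Groups did not overlap for 9.7% of all tested genes against vehicle (4.87% lower in tdT-) and for 9.35% against BLZ945 tdT+ (4.79% lower), and nothing is read from this, since the genes were selected on these values.

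**Figure D1:**
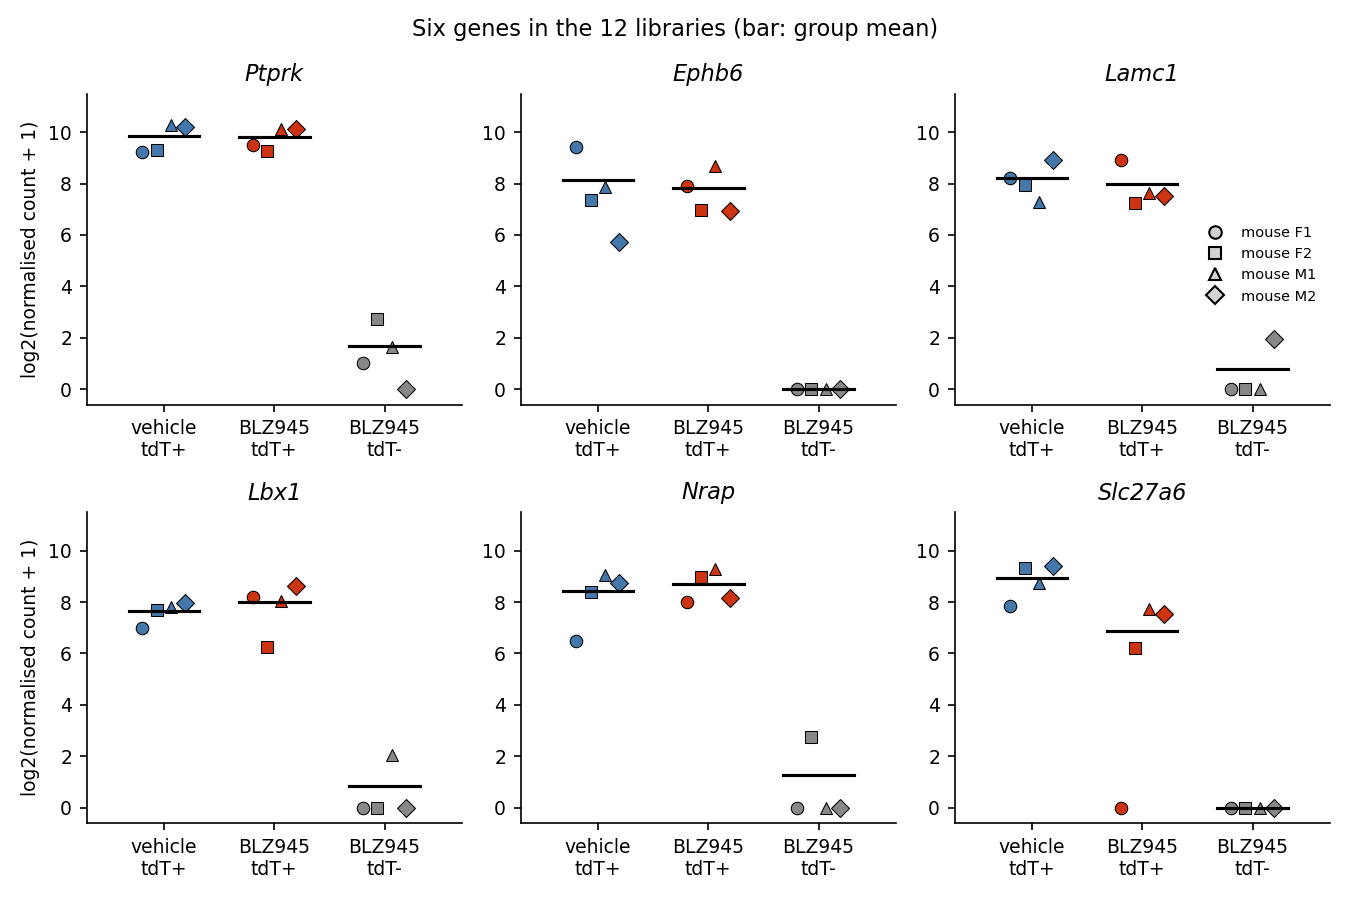
Normalised counts of each gene in the 12 libraries, as log2(normalised count + 1), by group. Points are libraries with the mouse label as symbol and bars are group means of the normalised counts. All tdT- points lie below all tdT+ points except for Slc27a6, where the BLZ945 tdT+ library F1 is at 0 as well.

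Ptprk, the adhesion phosphatase, was the steadiest of the 6 over tdT+ libraries. Its raw counts were 594, 645, 1439 and 1315 in the vehicle libraries F1, F2, M1 and M2, and 791, 668, 1093 and 1071 in the BLZ945 tdT+ libraries of the same order. In tdT- libraries they were 1, 6, 2 and 0. Both tdT+ groups covered the same range, both were lower in the mice labelled F than in those labelled M, and no tdT- library came near them. The mean was 916 ± 347 normalised counts in vehicle, 897 ± 264 in BLZ945 tdT+ and 2.20 ± 2.46 in tdT- libraries. The ratio was 408 against BLZ945 tdT+ cells (95% interval 207 to 863) and 416 against vehicle (219 to 913). These intervals, and all floors, cover counting error of reads only and leave out the spread between libraries. The cDNA was amplified by PCR without molecular identifiers, so separate counts need not stem from separate molecules. Without the tdT- library F2 the ratios were 853 and 872. Even the lowest tdT+ library stood 105 times above the highest tdT- library.

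Ephb6, the Eph receptor without kinase activity, had 0 counts in every tdT- library. In vehicle libraries it had 686, 163, 270 and 58 counts, and in BLZ945 tdT+ libraries 261, 134, 400 and 115. It was thus found in all 8 tdT+ libraries but at very uneven levels, with the highest 13.2 times the lowest. The means were 284 ± 279 and 224 ± 136 normalised counts. Set against the floor of 3 counts per library, Ephb6 was at least 74.6-fold lower in tdT- than in BLZ945 tdT+ cells and at least 94.7-fold lower than in vehicle, the second falling to at least 49.8-fold without the vehicle library F1. Ephb6 is known from T cells. The summed level of 5 T cell markers was 0, 94.1, 98.7 and 0 normalised counts in the vehicle libraries, between 0 and 39.9 in BLZ945 tdT+ libraries and 0 in all tdT- libraries. The cells were sorted as CD206+, and the part of T cells in the level of Ephb6 was not tested.

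Lamc1, the laminin chain, was counted 299, 246, 178 and 530 times in vehicle libraries and 521, 161, 191 and 174 times in BLZ945 tdT+ libraries. In tdT- libraries it was counted 0, 0, 0 and 3 times. A single library of each tdT+ group, M2 of vehicle and F1 of BLZ945, stood above the rest, and the tdT- libraries lay below all of them. The means were 294 ± 137, 252 ± 153 and 0.717 ± 1.43 normalised counts. The ratio was 351 against BLZ945 tdT+ cells (95% interval 117 to 1660) and 410 against vehicle (134 to 1906), and it rests on the 3 counts of the tdT- library M2. Without that library the gene was at least 82.8-fold and at least 96.7-fold lower. A ratio made from so few counts and a bound such as that of Ephb6 are different quantities and cannot be ranked against each other. Fibroblasts are a known source of laminins, and their 5 markers summed to between 153 and 399 normalised counts in tdT+ libraries and between 12.7 and 421 in tdT- libraries. Their part in the level of Lamc1 was not tested.

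Lbx1, the homeobox factor, was counted 125, 207, 256 and 277 times in vehicle libraries and 319, 82, 255 and 375 times in BLZ945 tdT+ libraries. In tdT- libraries it was counted 0, 0, 3 and 0 times. Vehicle libraries were close together and BLZ945 tdT+ libraries spread around them, with F2 the lowest of the 8. The means were 200.4 ± 53.3, 256 ± 133 and 0.791 ± 1.58 normalised counts. The ratio, again from 3 counts, was 324 against BLZ945 tdT+ cells (95% interval 115 to 1634) and 253 against vehicle (92.4 to 1317). Without the tdT- library M1 the gene was at least 87.0-fold and at least 68.1-fold lower.

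Nrap, the muscle anchoring protein, was counted 88, 333, 616 and 477 times in vehicle libraries and 280, 547, 609 and 270 times in BLZ945 tdT+ libraries. In tdT- libraries it was counted 0, 6, 0 and 0 times. The vehicle library F1 was the lowest of the 8 tdT+ libraries and still 15.6 times the highest tdT- library. The means were 345 ± 190, 417 ± 177 and 1.41 ± 2.82 normalised counts, and the ratio was 296 against BLZ945 tdT+ cells (95% interval 128 to 760) and 245 against vehicle (109 to 647). Without the tdT- library F2 the gene was at least 137-fold and at least 113-fold lower. The 7 striated muscle markers summed to between 0 and 37.9 normalised counts in tdT+ libraries and to between 9.39 and 84.4 in tdT- libraries. In each tdT+ group 5 of the 7 markers were at 0. Among tdT+ libraries the sum was highest in the BLZ945 library M1, which was also highest for Nrap. It was 0 in the vehicle library F1, which was lowest for Nrap. Other libraries did not follow this order. The vehicle library M1 held a sum of 3.46 with 533 normalised counts of Nrap, and the BLZ945 tdT+ library M2 a sum of 19.9 with 283. The part of muscle RNA in the levels of Nrap and Lbx1 was not tested.

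Slc27a6, the fatty acid transporter, differed from the other 5. It was counted 230, 647, 487 and 754 times in vehicle libraries but 0, 79, 208 and 175 times in BLZ945 tdT+ libraries, and 0 times in every tdT- library. Each BLZ945 tdT+ library was below each vehicle library, and its library F1 was as empty as the tdT- libraries. The means were 493 ± 209 normalised counts in vehicle and 117 ± 98.9 in BLZ945 tdT+ libraries. It was at least 39.2-fold lower in tdT- than in BLZ945 tdT+ cells and at least 165-fold lower than in vehicle. Per kilobase of exon, Slc27a6 had the highest level of the 6 in vehicle libraries, 198 normalised counts, followed by Lbx1 (80.7), Ephb6 (75.2), Ptprk (68.8), Nrap (62.7) and Lamc1 (35.5). In BLZ945 tdT+ libraries the order per kilobase was Lbx1 (103), Nrap (75.8), Ptprk (67.3), Ephb6 (59.3), Slc27a6 (47.2) and Lamc1 (30.4). Neighbours in both orders overlapped in the ranges of their libraries.

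Markers of sdCAMs kept a larger share of their level. The 6 genes were selected on low counts in tdT- libraries, which set this difference in advance, so it is a description. Of the BLZ945 tdT+ level, tdT- libraries held 0.245% for Ptprk, 0.285% for Lamc1, 0.309% for Lbx1 and 0.338% for Nrap, and at most 1.34% for Ephb6 and 2.55% for Slc27a6 by the floor. The first 4 are measured shares from 3 to 9 counts and the others are upper limits, so they give no order among the 6. Of the sdCAM markers they held between 14.2% (Cd163, a scavenger receptor) and 66.2% (Ms4a7), with Mrc1 at 34.2%. Of the microglia markers they held between 279% (Siglech) and 459% (Sall1). The part of a different mixture of cells in the levels of the 6 genes was not tested.

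**Figure D2:**
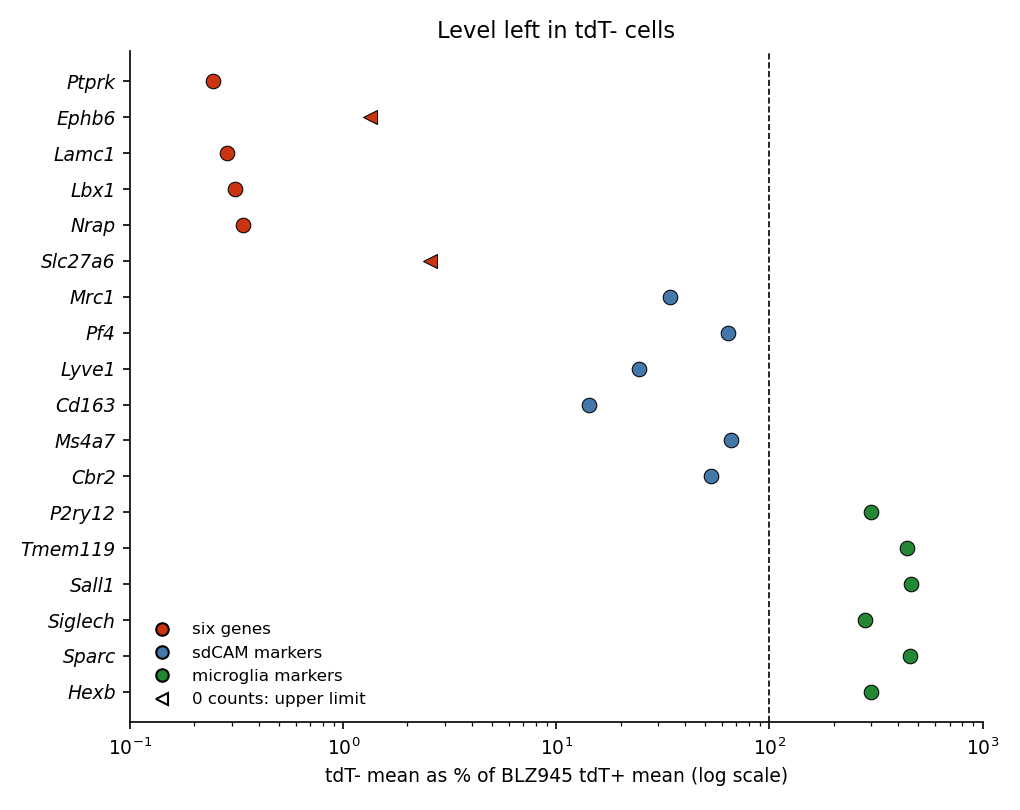
Mean level in tdT- libraries as a percentage of the mean in BLZ945 tdT+ libraries, on a log axis, for the 6 genes, 6 sdCAM markers and 6 microglia markers. Triangles are upper limits for genes with 0 counts in tdT- libraries, and the dashed line marks equal means. The 6 genes lie at or below 2.55%, the sdCAM markers between 14.2% and 66.2% and the microglia markers above 100%. The low position of the 6 genes was set by their selection.

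The next question was whether a gene at this level is usually seen in every library. Among 5962 genes with a mean between 100 and 1000 normalised counts over the 8 tdT+ libraries, 375 (6.29%) had 3 counts or fewer in at least 1 tdT+ library. This share depended on abundance, and was 22.8% between 100 and 200 normalised counts, 4.01% between 200 and 400 and 0.278% between 400 and 1000. Ptprk, at 907, falls in the highest of these ranges, and the other 5 genes, between 228 and 381, in the middle one. Ptprk, Ephb6, Lamc1, Lbx1 and Nrap were above 3 counts in 8 of 8 tdT+ libraries and Slc27a6 in 7 of 8. The genes were selected on high counts in these libraries, so their detection there is a description. An example of the loss of single genes in single libraries, picked after its values were seen, is Uty, a Y-linked gene that had between 333 and 605 counts in 5 libraries of mice labelled M and 2 counts in the tdT- library M2.

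The spread over the 8 tdT+ libraries set the genes apart. The coefficient of variation was 31.5% for Ptprk, 43.1% for Lbx1, 45.8% for Nrap and 49.96% for Lamc1, beside a median of 37.6% over the 5962 genes. The median depended on abundance. It was 42.0% between 200 and 400 normalised counts and 29.8% between 400 and 1000, the range of Ptprk. The coefficient of variation was 81.2% for Ephb6 and 82.3% for Slc27a6, values that 4.48% and 4.18% of the 5962 genes reached. Within vehicle and within BLZ945 tdT+ libraries it was 98.5% and 60.9% for Ephb6 but 42.3% and 84.2% for Slc27a6, whose pooled value also holds the difference between the 2 group means. Libraries low for one gene were not low for all. The vehicle library M2 had the fewest counts of Ephb6 of the 8 and the most of Lamc1 and Slc27a6, and the BLZ945 tdT+ library F1 had 0 counts of Slc27a6 and 521 of Lamc1.

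Low counts in all 4 libraries were rarer than in 1. Of the same 5962 genes, 649 (10.9%) had 3 counts or fewer in at least 1 tdT- library and 7 (0.117%) in all 4. These were Ephb6, Lamc1, Lbx1, Slc27a6, Arhgap6, Dpyd and Opn3. When all 8 tdT+ libraries had to be above 3 counts as well, 3 genes (0.0503%) were left, Ephb6, Lamc1 and Lbx1. These counts use the values that chose the genes and are a description. The same rule was turned round, with the mean taken over the libraries of the other groups. All 4 BLZ945 tdT+ libraries were then low for 30 of 6056 genes (0.495%), and all 4 vehicle libraries for 12 of 6082 (0.197%). Both shares were higher than that of tdT- libraries (0.117%). With fewer low libraries the order was the other way. Exactly 1 library was low for 7.73% of genes in tdT-, 4.75% in vehicle and 3.85% in BLZ945 tdT+ libraries. Exactly 2 were low for 2.28%, 1.15% and 0.842%, and exactly 3 for 0.755%, 0.280% and 0.462%, in the same order. Loss from some libraries only was thus most frequent in tdT- libraries.

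When the mean had to reach 100 normalised counts in each tdT+ group, with at most 3 counts in every tdT- library, 5 of 9069 genes (0.0551%) were found, namely Ephb6, Lamc1, Lbx1, Slc27a6 and Arhgap6. The same pattern with BLZ945 tdT+ libraries as the low group held for 3 of 8951 genes (0.0335%), and with vehicle libraries as the low group for 0 of 9003. Leaving out a tdT- library raised the 5 genes to 10 (F1), 20 (F2), 13 (M1) or 8 (M2). Arhgap6, on chromosome X, is no member of the 6 and had 52, 377, 220 and 3 counts in vehicle libraries, 141, 103, 51 and 137 in BLZ945 tdT+ libraries and 0 in all tdT- libraries. Ptprk and Nrap lay just outside this limit, with 6 counts in the tdT- library F2, as did Dock6 with 9 counts in the tdT- library M1. On the other side, Gm34225 fell just short of the mean, with 101 and 96.8 normalised counts in the tdT+ groups and 0 counts in tdT- libraries.

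**Figure D3:**
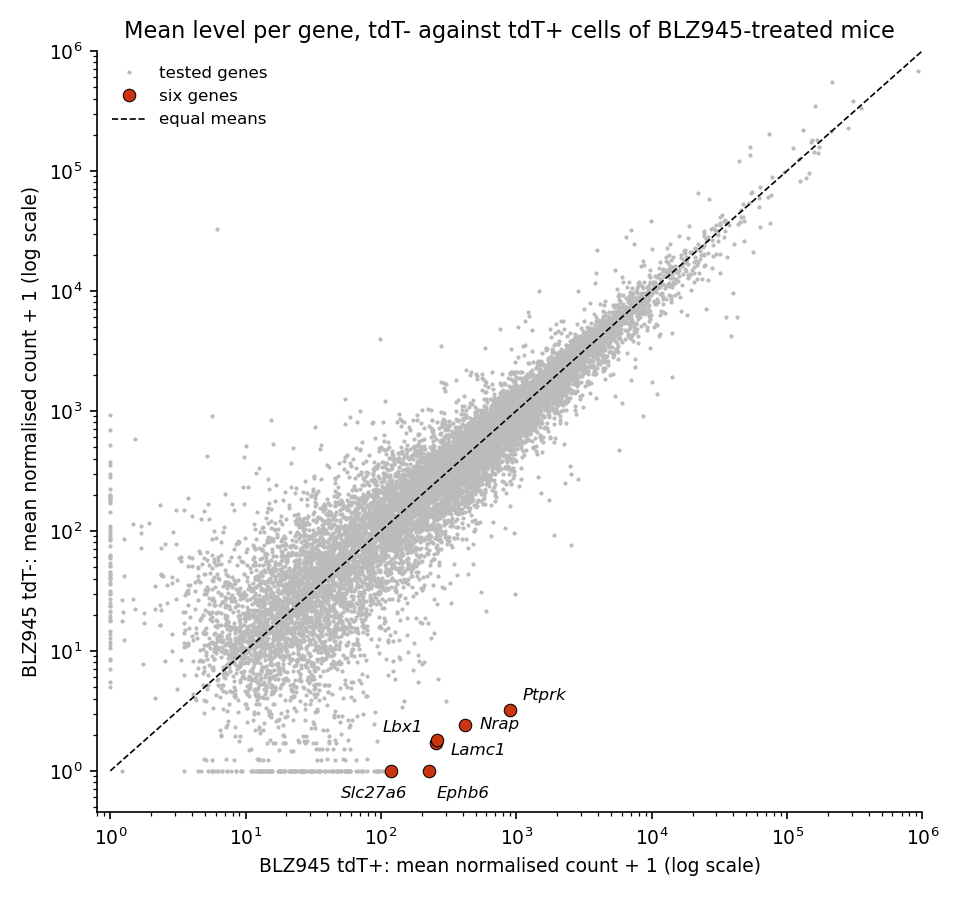
Mean normalised count + 1 of every tested gene in BLZ945 tdT- libraries (vertical) against BLZ945 tdT+ libraries (horizontal), both on log axes, with the 6 genes in red and equal means as a dashed line. The 6 genes lie at the lower edge of the cloud, with tdT- means between 0 and 2.20.

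Between the tdT+ groups, a contrast in which 23 of 13724 genes (0.168%) passed both limits for a call (adjusted p no higher than 0.05, shrunken log2 fold change of 1 or more in either direction; 0.153% of genes higher and 0.0146% lower in BLZ945), 0 of the 6 genes was called by DESeq2 and 0 by edgeR, and 0 had an unadjusted p under 0.05. The unshrunken log2 difference of BLZ945 from vehicle tdT+ cells was -0.03 ± 0.41 (SE) for Ptprk, with a 95% interval from -0.83 to 0.76. It was -0.34 ± 0.84 for Ephb6 (-1.99 to 1.30), -0.22 ± 0.64 for Lamc1 (-1.47 to 1.03), 0.35 ± 0.67 for Lbx1 (-0.95 to 1.66) and 0.27 ± 0.72 for Nrap (-1.13 to 1.68). For Ptprk the interval leaves out a change of 1 log2 unit in either direction. That of Lbx1 leaves out a fall of this size but not a rise, and those of Ephb6, Lamc1 and Nrap leave out neither. Selection on high counts in tdT+ libraries disfavours genes lost from either tdT+ group, which limits what the lack of calls can show.

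Slc27a6 had the largest difference of the 6, -2.07 ± 1.12, with an interval from -4.27 to 0.12 and an adjusted p of 0.694 (DESeq2 Wald test over all genes; 0.891 with edgeR). Its groups did not overlap, which held for 6.72% of all tested genes, 3.14% with BLZ945 lower. Leaving out any 1 library moved the difference between -2.53 and -1.66. With the mouse label as replicate block, in groups that here come from different animals, the adjusted p was 0.0391 and the difference -3.01, but shrinkage reduced it to -0.06 and the gene was not called.

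**Figure D4:**
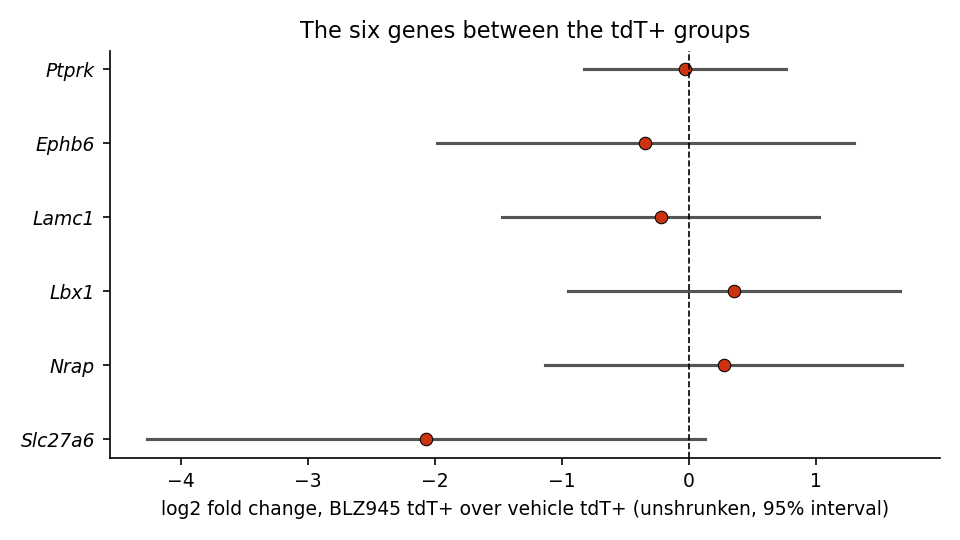
Unshrunken log2 fold change of BLZ945 tdT+ over vehicle tdT+ cells for the 6 genes, with points for the estimate and bars for the 95% interval. Every interval includes 0, and that of Slc27a6 reaches from -4.27 to 0.12.

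The genes lie at 6 places in the genome (GRCm39, gene spans of the count table, reads counted over exons). Ptprk spans chr10:27950816-28473393 on the plus strand, with 13328 bases of merged exon in 35 blocks, and Ephb6 chr6:41582416-41597443 on the plus strand, with 3773 bases in 18 blocks. Lamc1 spans chr1:153094668-153208532 on the minus strand (8272 bases, 28 blocks). Lbx1 and Nrap are both on the minus strand of chromosome 19, at chr19:45221123-45224251 (2484 bases, 2 blocks) and chr19:56308467-56378469 (5507 bases, 42 blocks). Slc27a6 spans chr18:58689329-58745845 on the plus strand (2485 bases, 10 blocks).

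Of the 12 nearest tested genes on either side, 0 was called by DESeq2 or edgeR in any of the 3 contrasts, with 1, 3 and 3 at an unadjusted p under 0.05 for BLZ945 tdT+ against vehicle, tdT- against BLZ945 tdT+ and tdT- against vehicle, and their shrunken log2 differences between tdT- and BLZ945 tdT+ cells lay between -0.45 and 0.64. Isoc1, 46.7 kb from Slc27a6, was at 2285, 2079 and 2114 normalised counts in vehicle, BLZ945 tdT+ and tdT- libraries. Btrc, a ubiquitin ligase subunit gene 128 kb from Lbx1, was at 278, 458 and 514. Reads were counted without strand, and Nrap shares exonic bases with Habp2 and Gm17197 on the other strand, which had 8 and 0 counts in all libraries together. Trpv6, 0.115 kb from Ephb6, had 0 counts. Gm8818, within the span of Lamc1 but with no exon in common, was at 0, 120.2 ± 55.4 and 39.3 normalised counts, and was called higher in BLZ945 tdT+ than in vehicle libraries (DESeq2 adjusted p = 0.000174), a contrast in which Lamc1 was not called. The call of Gm8818 was lost with edgeR (adjusted p = 0.278) and without the vehicle library M1 or the BLZ945 tdT+ library F1, M1 or M2.

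Relatives of the 6 genes, taken as lists without the genes themselves, gave few calls. Called genes made up 2.25% of all tested genes between tdT- and BLZ945 tdT+ cells (1.19% higher, 1.06% lower) and 2.55% between tdT- and vehicle cells (1.48% higher, 1.07% lower). Of the receptor-type tyrosine phosphatases, 10 of 19 could be tested, 0 was lower in tdT- cells and 1 was higher, against vehicle only. This was Ptprm, which encodes a phosphatase of the same subfamily as that of Ptprk and rose from 182 ± 142 normalised counts in vehicle to 679 ± 287 in tdT- libraries (log2 difference 1.41 ± 0.74 SE, DESeq2 adjusted p = 0.0327). In BLZ945 tdT+ libraries Ptprm was at 432 ± 59.5, and these were not called different from tdT- or from vehicle libraries. The call against vehicle was lost with edgeR (adjusted p = 0.154) and without the vehicle library F2 or M2 or the tdT- library F2 or M1. Of Eph receptors and ephrins, 8 of 21 could be tested and 0 was called in any contrast by DESeq2 or edgeR, with 1, 0 and 2 at an unadjusted p under 0.05 for BLZ945 tdT+ against vehicle, tdT- against BLZ945 tdT+ and tdT- against vehicle. Efnb1, a ligand of Eph receptors, was between 179 and 197 normalised counts in the 3 group means, whereas the ligand Efna1 was at 46.6 ± 27.0 in vehicle, 4.60 ± 9.20 in BLZ945 tdT+ and 0 in tdT- libraries and was not called.

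Laminin and basement membrane genes were few. Of 20, 4 could be tested, and the laminin alpha chains Lama1 to Lama5 had at most 17 counts in any library. Lamb2, a beta chain that pairs with the gamma 1 chain, was at 275 ± 189, 345 ± 43.0 and 223 ± 173 normalised counts. Nid2, encoding nidogen 2, which links laminin to collagen IV, was the 1 gene called. It was lower in tdT- (609 ± 126) than in BLZ945 tdT+ libraries (1764 ± 421), by a log2 difference of -1.32 ± 0.42. The DESeq2 adjusted p was 0.00312 and that of edgeR 0.0537. In vehicle libraries Nid2 was at 1109 ± 614, and it was not called between tdT- and vehicle cells. Of 7 laminin receptors 4 could be tested, and 0 was called in any contrast by either tool, with 1, 3 and 1 at an unadjusted p under 0.05 in the order of contrasts above. Itga6 and Dag1, receptors for laminin, were at 3616 ± 428 and 1271 ± 232 normalised counts in tdT- libraries and at 2963 ± 1064 and 1932 ± 381 in BLZ945 tdT+ libraries. Bcam, which binds laminin alpha 5, was at 10.8 ± 21.6 in vehicle, 56.0 ± 20.9 in BLZ945 tdT+ and 0 in tdT- libraries and was not called.

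The muscle programmes around Lbx1 and Nrap were largely not counted. Of 15 muscle precursor and Lbx1-related genes 2 could be tested, and 0 was called or had an unadjusted p under 0.05 in any contrast. Pax3, Pax7, Myf5 and Myod1, which act in muscle precursors, had 0 counts in all libraries. Lbx2, the paralogue of Lbx1, was at 143 ± 57.1, 154 ± 61.6 and 134 ± 47.1 normalised counts in vehicle, BLZ945 tdT+ and tdT- libraries. Of 18 genes of the nebulin family and muscle cytoskeleton 8 could be tested. Tln2, encoding talin 2, which couples integrins to actin, was the 1 gene called, and was lower in tdT- (1410 ± 826) than in BLZ945 tdT+ (3492 ± 711) and vehicle libraries (3421 ± 289), by -1.12 ± 0.37 and -1.09 ± 0.37 (DESeq2 adjusted p = 0.00445 and 0.00574). Both calls were lost with edgeR (0.0720 and 0.0704) and without the tdT- library F1 or F2, the first also without the BLZ945 tdT+ library F1 or M1 and the second without the vehicle library F2. Lasp1, the nebulin family member of non-muscle cells, was at 3189 ± 64.6, 2290 ± 158 and 2792 ± 1025.

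Of 16 genes of fatty acid uptake and activation, the list around Slc27a6, 13 could be tested, and the transporters Slc27a1 and Slc27a4 stayed at group means between 466 and 542 normalised counts. Lpl, the lipase that frees fatty acids from lipoproteins, was higher in tdT- (1467 ± 635) than in BLZ945 tdT+ libraries (296 ± 181) by 2.12 ± 0.48 (DESeq2 adjusted p = 2.65e-05), and was called in all 16 alternatives. In vehicle libraries Lpl was at 733 ± 151, and it was not called between tdT- and vehicle cells. Fabp5, a fatty acid binding protein, was higher by 1.14 ± 0.47 (106 ± 28.3 to 282 ± 64.4, adjusted p = 0.0164), a DESeq2 call that was lost with edgeR (0.169) and without the BLZ945 tdT+ library M1 or M2 or the tdT- library F1 or F2. Cd36, a fatty acid uptake receptor, was lower in tdT- libraries (6326 ± 3110) than in vehicle (17318 ± 3189) by -1.37 ± 0.26 (DESeq2 adjusted p = 5.13e-07), also in all 16 alternatives. In BLZ945 tdT+ libraries Cd36 was at 11547 ± 1946, and it was not called between tdT- and BLZ945 tdT+ cells. Acsl3, an acyl-CoA synthetase, was higher in BLZ945 tdT+ (2334 ± 602) than in vehicle libraries (994 ± 198), in the opposite direction to Slc27a6, by 1.11 ± 0.28 (DESeq2 adjusted p = 0.00118), a call lost with edgeR (0.207) and without the vehicle library M1 or the BLZ945 tdT+ library M2. The median shrunken log2 difference of each of the 7 lists lay within 0.17 of 0 in all 3 contrasts, where the median over all tested genes was at most 0.00496.

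The genes with the most similar pattern over the 12 libraries were found by comparing, for each gene of at least 100 normalised counts in tdT+ libraries, the share of its counts held by each library, with 0% for equal profiles and 100% for profiles with no library in common. Closest to Ptprk was Cpne8 (12.2%), a calcium-dependent membrane binding protein, followed by the scavenger collectin Colec12 (13.9%) and Dock9 (14.05%). Cpne8 held 1.56% of its normalised counts in tdT- libraries. Closest to Lamc1 were Spats2l (16.2%), Pou2af3 (16.4%) and Vsig4 (17.5%), a complement receptor of resident macrophages. Closest to Lbx1 were Ptprk (14.6%), the complement gene C2 (14.9%) and Cpne8 (15.9%), and closest to Nrap 5330406M23Rik (11.6%), Zik1 (14.7%) and Zfp948 (15.3%). Closest to Ephb6 were Macrod2 (21.2%), Dock6 (22.4%) and Dpyd (24.5%), and closest to Slc27a6 Slc22a18 (17.9%), Bdp1 (23.01%) and Tgm1 (23.5%). Not all of these similar genes were nearly silent in tdT- libraries. The share of their normalised counts held there ranged from 0% (Dpyd) to 14.1% (Bdp1). It was 7.07% for Spats2l, 11.4% for Pou2af3 and 10.95% for Vsig4. Among the 6, Ptprk and Lbx1 were the most alike (14.6%) and Ephb6 and Slc27a6 the least (50.9%).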

How the data were processed

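Bulk RNA-seq of 12 libraries was analysed from the deposited table, which holds raw counts of reads per gene symbol. Per the labels, the SMART-Seq mRNA LP protocol was used on less than a nanogram of RNA, with PCR amplification. Per the file headers, the authors counted reads with featureCounts 2.0.6 over exons of a filtered GENCODE M33 annotation (GRCm39) plus tdTomato, ignoring strand and leaving out multi-mapping reads, so near-identical copies and overlapping genes are uncertain. Submitters' notes also name STAR 2.7.11a and DESeq2 1.46.0. All 12 count columns were assigned by library number, which for 1 vehicle column disagrees with its mouse label.

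A gene was removed when 9 or more of the 12 libraries (75%) held fewer than 10 counts, leaving 13724. DESeq2 1.42.0 (Wald test on group over the 12 libraries, Benjamini-Hochberg adjustment) and apeglm 1.24.0 were run in R 4.3.3, after a test on simulated data. Calls needed an adjusted p no higher than 0.05 and a shrunken log2 fold change of 1 or more in either direction, as in the study. Intervals of ratios are exact binomial intervals of summed counts. Values are mean ± SD over 4 libraries. No replicate pair was within sampling noise (smallest chi-square per degree of freedom 45.6 over 18 pairs).

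Alternatives were edgeR 4.0.16 (TMM, quasi-likelihood), no filter, unshrunken fold changes, the mouse label as block, other factors and limits, and leaving out each library. tdT+ and tdT- libraries of 1 mouse are paired by the labels. Their deviations from group means correlated across genes by between -0.00463 and 0.0352.

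The 6 genes, the lists of relatives and the marker lists were chosen with earlier results of these data known. Other genes were named by rule: called genes of each list, up to 10 genes that meet the low-count limit, the 3 most alike profiles, and neighbours. Genes of the lists that were not called, and Uty, were picked after their values were seen.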

Additional observations from a re-analysis of the deposited data

Results flagged for a closer look

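Of 19 sets of 4 libraries that could be examined (the 6 genes and their sum in 3 groups, leaving out sets with equal values), 4 had a library far from the other 3. Chance gives about 1 in 20, but this does not apply to the 3 tdT- sets among them, in which 3 libraries were at 0, so that any count in the fourth stands apart, and whose low values chose the genes. In BLZ945 tdT+ cells, the library F1 was at 479 normalised counts of Lamc1 and the other 3 between 148 and 196. These tdT- sets held a single library above 0, at 2.87 normalised counts for Lamc1 (M2), 3.16 for Lbx1 (M1) and 5.65 for Nrap (F2). These 3 values correspond to 3, 3 and 6 counts.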

How the results depend on the processing

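Genes called numbered 23 between the tdT+ groups, and 7 with edgeR, 46 without the filter, 67 with unshrunken fold changes, 57 with the replicate block and between 17 and 36 with 1 library left out, the highest without the vehicle library F2. Unshrunken fold changes gave 487 calls between tdT- and BLZ945 tdT+ cells (309 otherwise) and 544 between tdT- and vehicle cells (350 otherwise). Leaving out 1 library gave between 262 and 364 calls and between 312 and 382. The replicate block gave 372 and 368 calls, and changed no call on the 6 genes, of which 0 was called between the tdT+ groups in any of the 16 alternatives. The block turned the difference of Ephb6 between the tdT+ groups from -0.34 to 0.032. With 1 library left out the difference lay between -0.81 and 0.58 for Ephb6, between -0.19 and 0.15 for Ptprk, between -0.75 and 0.11 for Lamc1, between -0.048 and 0.56 for Nrap and between 0.07 and 0.66 for Lbx1, so that the sign for Ephb6, Ptprk, Lamc1 and Nrap rests on single libraries. The cause was not tested.

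The 5 genes with at most 3 counts in every tdT- library became 3 with 0 counts allowed, 8 with 10 allowed, 21 with a mean of at least 50, 3 with a mean of at least 200 and between 4 and 20 with 1 library left out. Against BLZ945 tdT+ cells, leaving out 1 library moved the fold of Ptprk between 306 and 853, Lamc1 between 82.8 and 399, Lbx1 between 87.0 and 399.6 and Nrap between 137 and 333. Against vehicle it moved Ptprk between 312 and 872, Lamc1 between 96.7 and 475 and Lbx1 between 68.1 and 285. The lowest values for Lamc1, Lbx1 and Nrap are bounds against the floor, reached when the 1 tdT- library with counts is left out. TMM factors and library totals moved no fold by more than 1 SD of the tdT+ libraries. In alternatives chosen after seeing the data, the 5 genes found in all tdT+ libraries were also found at more than 0 and more than 10 counts, and were 6 without the BLZ945 tdT+ library F1. By counting error alone, a count of 0 in a tdT- library allows a level of up to 2.82 to 3.16 normalised counts. This limit does not cover the loss of a gene from a single library, as seen for Uty, so the bounds against the floor hold for counting error only.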
